A study of Mus musculus with 6 samples.

Results

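The aminoacyl tRNA synthetases described here are 36 mouse genes, chosen by name from the 16440 genes of an RNA-seq table. They were the 20 cytosolic enzymes, such as Aars for alanine, and 16 mitochondrial enzymes, whose symbols end in 2, such as Aars2. The choice used gene names and no measured value, but earlier results of these data were known when it was made. Libraries came from c-Kit+ acute promyelocytic leukemia (APL) progenitors and from normal myeloid progenitors (MPs), 3 per group, and the comparison asks how the leukemic progenitors differ from normal ones. Normal MPs were bone marrow (BM) cells sorted as Lin-Sca-1-c-Kit+. APL cells were c-Kit+ cells sorted from mice that had received GFP-labeled APL cells by transplantation. The paper's supplement gives an age range for transplant recipients and describes them as either not irradiated or sublethally irradiated. Which of these applies to the libraries here is not given. Both groups were of the strain FVB N/J. The APL cells descended from hMRP8-PML/RARα transgenic mice, in which the human MRP8 promoter drives the PML/RARα fusion in myeloid cells, and carried the GFP-expressing retroviral vector MigR1. No treatment, transgene or GFP label is given for the MPs. The labels give no ages. They call the libraries biological replicates without saying if each is a different mouse, and p-values here measure only the spread between them, which may be partly technical.

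A synthetase joins an amino acid to its tRNA, and the charged tRNA then brings that amino acid to the ribosome. Cytosolic enzymes serve the translation of nuclear-encoded mRNAs, while the mitochondrial enzymes serve the ribosomes inside mitochondria, which make subunits of the respiratory chain. The compartments here follow gene symbols, and the set holds no mitochondrial counterpart of Gars or Kars. A gene that supplies both compartments would be counted as cytosolic. When an amino acid runs short, uncharged tRNA activates the kinase GCN2, and the transcription factor ATF4 then raises many genes of amino acid supply, several cytosolic synthetases among them.

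ATF4 binds with a C/EBP partner at a sequence whose core was searched here as TGATGNAA. The E-box CACGTG, which MYC and related factors can bind, was searched beside it. Both strands were read in promoter windows of 250 bases before to 50 bases after each RefSeq start on GRCm38.p6, and the motifs can share 2 letters where they abut. Windows were found for 13 of the 20 cytosolic and 14 of the 16 mitochondrial enzymes. TGATGNAA was present for 5 of the 13 cytosolic genes (Aars, Gars, Iars, Tars and Yars) and for 0 of the 14 mitochondrial genes, beside 4.51% of all 27025 genes with a window and 3.97% of all 32851 windows. CACGTG was present for 4 of the 13 (Aars, Farsb, Iars and Tars) and for 1 of the 14 (Ears2), beside 8.09% of all genes and 7.15% of all windows.

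Sequences are shown for Aars and Tars because they were the only members that met the limits for a rise described below. Gars, Iars and Yars hold the same core and did not meet them. Capitals mark CACGTG and TGATGNAA, which in Aars is shown as its reverse complement because the match is on the other strand. The Aars stretch lies at chr8:111033688-111033745 on the plus strand, with CACGTG 146 bases and TTGCATCA 112 bases before the start and 28 bases between them. The Tars site is at chr15:11399655-11399684 on the plus strand, 15 bases before the start. The Gars site is at chr6:55037960-55037989 and the Iars site at chr13:49682126-49682155, both on the minus strand, 30 bases before and 7 bases after the start. The Yars site is at chr4:129189895-129189924 on the plus strand, 3 bases after the start. A further TGATGNAA match of Aars, 9 bases after the start, is not shown. CACGTG of Tars, 19 bases after the start, and of Iars, 69 bases before it, is not shown either.
Aars: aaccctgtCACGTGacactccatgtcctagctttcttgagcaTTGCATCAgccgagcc
Tars: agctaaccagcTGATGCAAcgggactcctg
Gars: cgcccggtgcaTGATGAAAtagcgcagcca
Iars: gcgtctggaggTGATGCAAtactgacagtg
Yars: acgagctcagcTGATGCAAcccgacgggac
A match is a description of the letters in these windows and does not show that a factor was bound.

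Sequencing depth before scaling was between 20608715 and 28382785 fragments per library. At that depth every member was measured well above the lowest values, the smallest being 217.2 scaled fragments (Pars2 in an APL library). All 36 members were tested. Of the MP libraries, replicate 3 stood farthest from the others, with a median variance of 13.6 and 13.7 times the counting noise against them, where the other within-group comparisons gave 3.30 to 6.91. The sorted populations also differed in cell type markers. The summed level of 10 erythroid markers was 1593 to 2061 FPKM (a level per transcript length and per mapped fragments) in MPs and 44.1 to 53.0 FPKM in APL cells, and all 9 that were tested were lower. The 6 megakaryocyte markers summed to 68.8 to 104 FPKM in MPs and 3.53 to 4.83 FPKM in APL cells, with 5 lower. Of 6 monocyte and macrophage markers 4 were lower and 1 higher, with sums of 69.1 to 83.9 and 16.9 to 19.6 FPKM. The 7 mature neutrophil markers summed to 11827 to 18375 FPKM in MPs and 45649 to 59534 FPKM in APL cells, with 2 higher and 2 lower. Of 5 mast cell and basophil markers 3 were lower and 1 higher, with sums of 49.2 to 68.0 and 42.1 to 49.9 FPKM. Of 8 lymphoid markers 7 were in the table, with sums under 4 FPKM in every library, and Cd3e was at 0 in all MP and Cd3g in all APL libraries. Of the 5 lymphoid markers that were tested 4 were lower and 0 higher. The 9 sort and progenitor markers summed to 8597 to 9680 FPKM in MPs and 23125 to 27627 FPKM in APL cells, with 6 higher and 2 lower. The 2 lower were Kit, the sorted receptor (log2 fold change -0.85), and Cd34 (-6.31), which changed most of the 9. Mpo, the myeloperoxidase of myeloid granules, was among the 6 higher (1.22). In bulk samples such as these, fewer cells of a type and less RNA per cell cannot be told apart. The part of the marker differences in the results below was not tested.

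The cytosolic enzymes moved little as a group, and the mitochondrial enzymes were mostly lower in APL cells. A gene was called at an adjusted p under 0.05 and a fold change over 1.5, using limma on log2(scaled fragments + 1) with Benjamini-Hochberg adjustment over the 14595 genes tested. By that rule 2 of the 20 cytosolic enzymes rose (Aars and Tars) and 2 fell (Farsb and Hars), which is 10% in each direction, beside 21.7% of all genes higher and 24.4% lower in APL cells. Of the 16 mitochondrial enzymes 0 rose and 5 fell (Iars2, Tars2, Rars2, Vars2 and Fars2), which is 31.3% against the background of 24.4%. At an unadjusted p under 0.05 with the same fold limit, 0 mitochondrial enzymes were higher as well. The median log2 fold change was 0.05 for the cytosolic enzymes, -0.47 for the mitochondrial enzymes and -0.10 for all genes tested. The sign of the cytosolic median turned to -0.04 under quantile normalization and to -0.08 under same-total scaling or voom weights, while the mitochondrial median stayed negative in all of them. Members share the same libraries, so neither median is a test of the group.

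Without the fold limit, at an adjusted p under 0.05 alone, 6 cytosolic enzymes were higher (Aars, Cars, Dars, Farsa, Kars and Tars), 7 lower (Eprs, Farsb, Hars, Iars, Mars, Qars and Wars), and 7 did not pass. The background for that limit was 29.7% of all genes higher and 37.3% lower. Of the mitochondrial enzymes 1 was then higher (Cars2) and 10 were lower, the 5 already named and Aars2, Hars2, Nars2, Wars2 and Yars2. The 5 that did not pass were Ears2, Lars2, Mars2, Pars2 and Sars2. Every APL library lay below every MP library for 10 of the 16 mitochondrial enzymes (62.5%) and 7 of the 20 cytosolic enzymes (35%), beside 39.8% of all genes. Every APL library lay above every MP library for 1 and 8 of them, beside 31.1% of all genes.

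**Figure D1:**
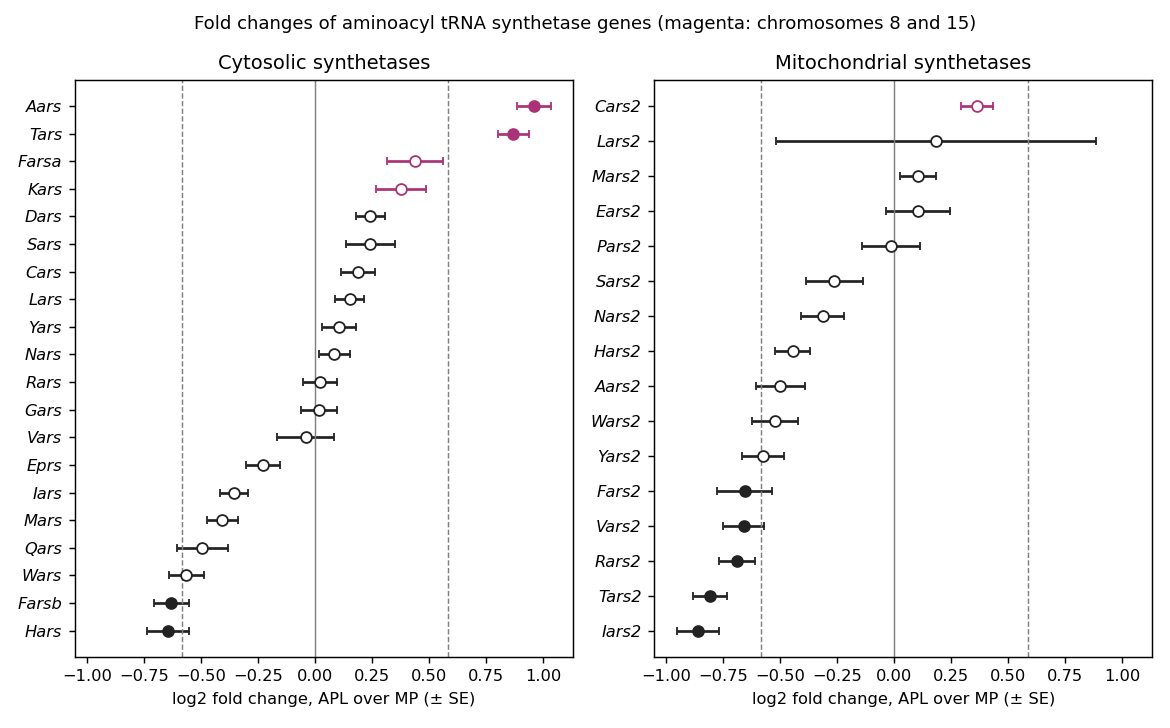
Log2 fold change of each synthetase, APL over MP, from limma on log2(scaled fragments + 1), with bars of 1 standard error (SE) and 3 libraries per group. Filled points passed both limits, dashed lines mark a 1.5-fold change, and magenta points are genes on chromosomes 8 and 15, which take the 5 highest places among the 36 members.

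Aars, the cytosolic alanyl tRNA synthetase at chr8:111033966-111057599, had 3153, 3194 and 3284 scaled fragments in the MP libraries and 5752, 6440 and 6576 in the APL libraries. All APL libraries were well above all MP libraries. The log2 fold change was 0.96 ± 0.07 (SE, n = 3 per group), or 1.95-fold, with an adjusted p of 4.6e-06 from limma. The table assigns Exosc6, a subunit of the RNA exosome, to the same locus, and its log2 fold change was 0.54, so the sum of the pair still differed by 0.90.

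Tars, the cytosolic threonyl tRNA synthetase at chr15:11383662-11399658, had 2633, 2531 and 2616 scaled fragments in MPs and 4641, 4556 and 5032 in APL cells. The groups were again far apart, with little spread within each. The log2 fold change was 0.87 ± 0.07 (SE), or 1.83-fold, with an adjusted p of 5e-06 from limma. Aars and Tars passed the limits in every alternative fit, though neither reached a 2-fold change. At a fold change over 2, 0 of the 36 members were called, beside 14.9% of all genes higher and 16.6% lower.

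Both genes lie on chromosomes whose genes were higher in APL cells overall. The median log2 fold change was 0.48 over 778 genes of chromosome 8 and 0.46 over 563 genes of chromosome 15, against -0.15 over the 13254 genes elsewhere. Of the chromosome 8 genes 42.0% were called higher, and of those on chromosome 15 41.7%, against 19.7% elsewhere. The 5 members on these chromosomes were Aars, Farsa, Kars and Cars2 (chromosome 8) and Tars (chromosome 15), and they held ranks 1 to 5 by log2 fold change. Set against the median of their own chromosome, Aars was 0.48 and Tars 0.41 higher on the log2 scale, while Farsa, Kars and Cars2 were at -0.04, -0.10 and -0.11. Among the 16 cytosolic enzymes on other chromosomes 0 rose, 2 fell, and the median log2 fold change was -0.01. DNA copy number was not measured, and the part of the chromosome in these values was not tested.

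Farsa and Farsb encode the alpha and beta subunits of 1 enzyme, the cytosolic phenylalanyl tRNA synthetase, and they moved in opposite directions. Farsa had 3467, 3743 and 4702 scaled fragments in MPs and 4819, 5870 and 5366 in APL cells, a log2 fold change of 0.44 ± 0.12 (SE) with an adjusted p of 0.011 from limma, under the fold limit. Farsb had 2642, 2604 and 2951 in MPs and 1732, 1678 and 1882 in APL cells, a log2 fold change of -0.63 ± 0.08 (SE) with an adjusted p of 0.00011. The APL libraries were all above the MP libraries for Farsa and all below them for Farsb. Farsa is on chromosome 8 and Farsb on chromosome 1, and the Farsb promoter window holds CACGTG but not TGATGNAA.

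Hars, the cytosolic histidyl tRNA synthetase, fell with values of 3568, 3700 and 4265 scaled fragments in MPs and 2259, 2472 and 2634 in APL cells. The libraries did not overlap, and the log2 fold change was -0.65 ± 0.09 (SE), with an adjusted p of 0.00023 from limma. Hars and its mitochondrial counterpart Hars2 stand head to head, 73 bases apart in the table, and Hars2 was lower as well (log2 fold change -0.45, adjusted p 0.00083), under the fold limit. Farsb and Hars lost their calls under median ratio scaling, at log2 fold changes of -0.57 and -0.58, and without MP replicate 3, at -0.57 for both, each time on the fold limit rather than the adjusted p.

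The other cytosolic enzymes lay within the fold limit. Wars, for tryptophan, was closest to it from below, with 2094, 2186 and 2452 scaled fragments in MPs and 1481, 1491 and 1569 in APL cells and a log2 fold change of -0.57. Qars (glutamine) and Mars (methionine) followed at -0.49 and -0.41, then Iars (isoleucine) at -0.35 and Eprs, the fused enzyme for glutamate and proline, at -0.23. For these 5 genes every APL library lay below every MP library. On the higher side Kars (lysine) was at 0.38, Dars (aspartate) at 0.24 and Cars (cysteine) at 0.19, also without overlap. Lars (leucine) at 0.15 and Nars (asparagine) at 0.08 were higher in every APL library but missed the adjusted p, with 0.064 and 0.31. The groups overlapped for Sars (serine, 0.24), Yars (tyrosine, 0.11), Rars (arginine, 0.02), Gars (glycine, 0.02) and Vars (valine, -0.04).

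**Figure D2:**
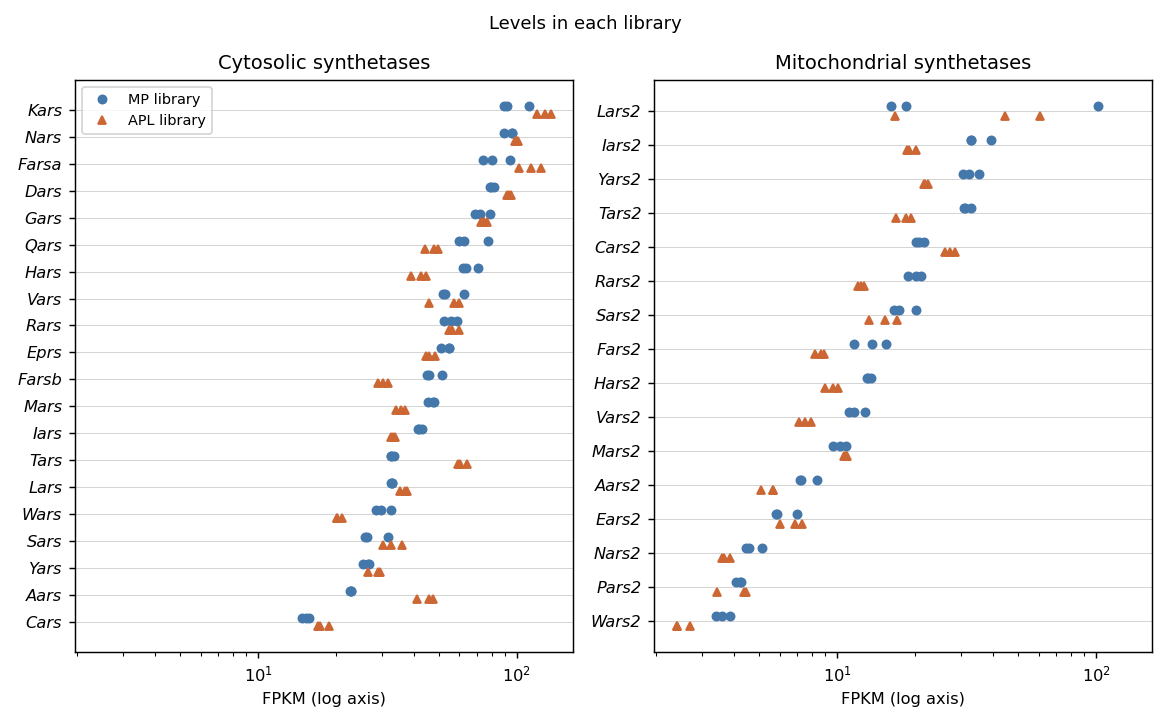
FPKM of every synthetase in each of the 3 MP libraries (blue circles) and 3 APL libraries (orange triangles), on log axes, with genes ordered by their mean in MPs. Most cytosolic enzymes lie above most mitochondrial ones, and Lars2 has the widest spread, from 16.1 to 101 FPKM in MPs.

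By FPKM, the cytosolic enzymes had a median level of 50.3 in MPs and 45.4 in APL cells, from Cars (15.3 and 17.7) to Kars (97.4 and 128). The mitochondrial enzymes had a median of 13.4 FPKM in MPs and 10.2 in APL cells, and Wars2, for tryptophan, was the lowest in both groups (3.61 and 2.50). The level of Aars was 22.8 ± 0.132 FPKM in MPs (SD, n = 3), the lowest cytosolic mean there but for Cars, and 44.8 ± 3.27 in APL cells, beside the APL median of 45.4. The neighbouring order of Cars, Aars and Yars in MPs is clear of their spread, since their ranges were 14.8 to 15.8, 22.7 to 22.9 and 25.4 to 26.9 FPKM. At the top, Kars (88.9 to 112 FPKM), Nars (89.5 to 96.1) and Farsa (73.8 to 94.5) overlapped in MPs.

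Some cytosolic synthetases sit together in the multi-tRNA synthetase complex, held by the scaffolds Aimp1, Aimp2 and Eef1e1. Of its 8 genes for enzymes (Dars, Eprs, Iars, Kars, Lars, Mars, Qars and Rars) 0 met both limits, beside 21.7% of all genes higher and 24.4% lower. By adjusted p alone 2 were higher and 4 lower (25% and 50%), beside 29.7% and 37.3% of all genes. Their median log2 fold change was -0.10. The 12 cytosolic enzymes outside the complex held all 4 calls, 2 in each direction (16.7% each), with a median of 0.10. Among the scaffolds, Eef1e1 had 1432, 1501 and 1734 scaled fragments in MPs and 806, 821 and 921 in APL cells and fell, with a log2 fold change of -0.87 ± 0.09 (SE) and an adjusted p of 4.6e-05 from limma. Aimp1 and Aimp2 overlapped between the groups, with log2 fold changes of -0.21 and -0.09. Grouped by the fold of the catalytic core, the 9 class I enzymes held 0 calls (median -0.04). The 10 class II enzymes held 2 higher and 2 lower (20% each, median 0.24). Class II includes Aars, Farsa, Kars and Tars, the 4 cytosolic members on chromosomes 8 and 15.

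From background knowledge, 13 cytosolic synthetases were listed as responsive to ATF4. Of these, 2 rose (Aars and Tars) and 0 fell, with a median log2 fold change of 0.08. The 2 are 15.4% of the list, under the 21.7% of all genes that were higher. The other 7 cytosolic enzymes held 0 higher and 2 lower (28.6%, beside 24.4% of all genes), with a median of 0.02. TGATGNAA was in the window of 5 of the 8 listed genes that had one, and their log2 fold changes ran from 0.96 (Aars) and 0.87 (Tars) through 0.11 (Yars) and 0.02 (Gars) to -0.35 (Iars). Iars, like Aars and Tars, holds both motifs, and it was lower in APL cells, with 5308, 5495 and 5338 scaled fragments in MPs and 4256, 4201 and 4174 in APL cells. Genes with the core thus lay on both sides of 0.

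The mitochondrial enzyme with the largest decrease was Iars2, for isoleucine, at chr1:185204167-185329401. It had 3371, 3414 and 4163 scaled fragments in MPs and 1923, 2085 and 1987 in APL cells, without overlap. The log2 fold change was -0.86 ± 0.09 (SE), with an adjusted p of 4e-05 from limma. Its locus in the table also holds Rab3gap2, which encodes a subunit of a regulator of the GTPases RAB3 and RAB18 and had 3704, 3528 and 3670 scaled fragments in MPs and 5274, 5113 and 5482 in APL cells. The sum of the pair was 7075, 6943 and 7833 in MPs and 7196, 7198 and 7470 in APL cells, a log2 difference of 0.00. How the authors' processing divided fragments between the pair was not tested, and Iars2 is the only called mitochondrial member with a shared locus.

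Tars2, the mitochondrial enzyme for threonine at chr3:95739973-95754977, had 2164, 2148 and 2329 scaled fragments in MPs and 1181, 1285 and 1327 in APL cells. Its log2 fold change was -0.81 ± 0.07 (SE), with an adjusted p of 1.5e-05 from limma. Every APL library was below every MP library, as for Tars in the reverse direction. A further gene, Tarsl2, encodes a cytosolic enzyme related to Tars, is no member of the set and fell from 1638, 1599 and 1738 scaled fragments in MPs to 762, 705 and 710 in APL cells.

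Rars2, for arginine, had 1018, 1087 and 1138 scaled fragments in MPs and 656, 650 and 701 in APL cells, with a log2 fold change of -0.69. Vars2, for valine, had 1322, 1366 and 1582 in MPs and 854, 952 and 887 in APL cells, with a log2 fold change of -0.66. Fars2, the single-chain mitochondrial enzyme for phenylalanine, had 598, 691 and 821 in MPs and 422, 446 and 459 in APL cells, also with -0.66. The APL libraries were lowest for all 3 genes, whose adjusted p from limma was 6.3e-05, 0.00018 and 0.0012. Without MP replicate 3, which had the highest value of these genes, Vars2 and Fars2 fell just short of the fold limit at -0.58 and -0.54, and the count of mitochondrial enzymes that fell went from 5 to 3.

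Yars2 (tyrosine), Wars2 (tryptophan), Aars2 (alanine), Hars2 (histidine) and Nars2 (asparagine) were lower in every APL library at log2 fold changes of -0.58, -0.52, -0.50, -0.45 and -0.31, past the adjusted p and short of the fold limit. Sars2 (serine) was at -0.26 with overlapping groups. Cars2, for cysteine, was the only mitochondrial enzyme that was higher by adjusted p, with 987, 1031 and 992 scaled fragments in MPs and 1232, 1349 and 1293 in APL cells and a log2 fold change of 0.36 ± 0.07 (SE, adjusted p 0.0016 from limma). As given above, it lies on chromosome 8 and was 0.11 below that chromosome's median. Ears2 (glutamate), Mars2 (methionine) and Pars2 (proline) overlapped between the groups at 0.10, 0.10 and -0.01.

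Lars2, the mitochondrial enzyme for leucine, varied more between libraries of a group than between the groups. It had 1887, 2148 and 11975 scaled fragments in MPs and 1930, 5200 and 7081 in APL cells, so the highest value was 6.35 times the lowest in MPs and 3.67 times in APL cells. For no other member did that ratio exceed 1.37. The log2 fold change was 0.18 ± 0.70 (SE), with an adjusted p of 0.83 from limma, and it was 1.04 without MP replicate 3 and between -0.29 and -0.20 without MP replicate 1, MP replicate 2 or APL replicate 3. Rn45s, the 45S pre-ribosomal RNA, had 5540, 4979 and 28696 scaled fragments in MPs and 6045, 11590 and 13075 in APL cells. It was highest in the same library of each group and its part in the Lars2 values was not tested.

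Summed over each compartment, the cytosolic enzymes had 999, 1028 and 1118 FPKM in MPs and 1049, 1117 and 1124 FPKM in APL cells, which overlap. The mitochondrial enzymes without Lars2 summed to 221, 229 and 249 FPKM in MPs and 167, 178 and 175 FPKM in APL cells. As a percentage of the cytosolic sum this was 22.2% ± 0.0930 in MPs and 15.8% ± 0.188 in APL cells (SD, n = 3). The percentage lay within 22.1% to 22.3% in every MP library, replicate 3 included, and within 15.6% to 15.9% in every APL library. With Lars2 it was 23.7%, 24.1% and 31.3% in MPs and 17.5%, 19.9% and 21.0% in APL cells, still without overlap. Lars2 made up 11.1% to 40.5% of the scaled fragments of the mitochondrial group, and it was left out of the former sum after its spread was seen. The mitochondrial sums with and without Lars2 both hold Iars2, at a mean of 34.9 FPKM in MPs and 19.2 FPKM in APL cells. Iars2 shares its locus with Rab3gap2, and the part of that sharing in these sums was not tested.

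**Figure D3:**
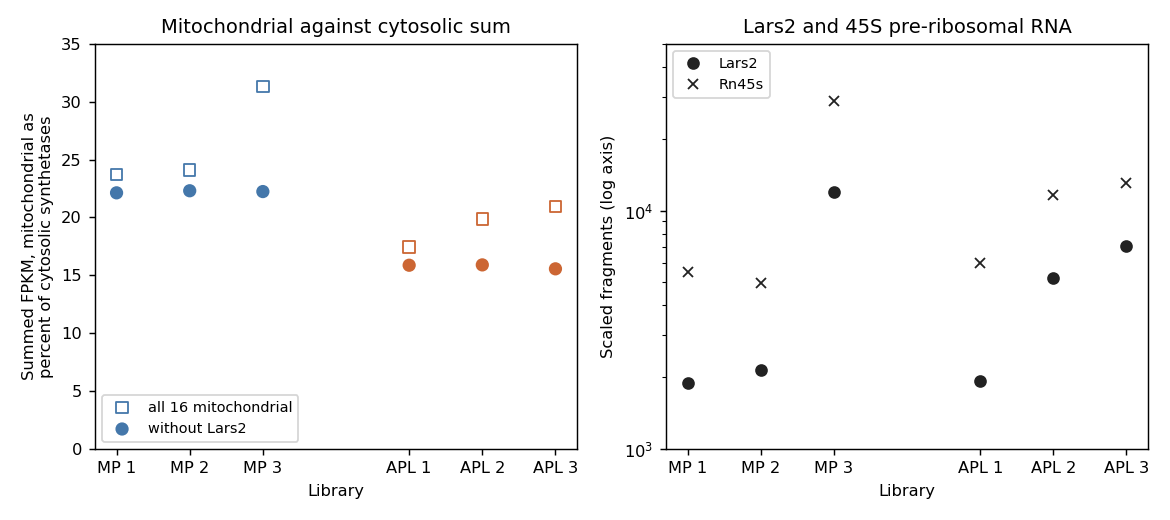
Left, the summed FPKM of mitochondrial synthetases as a percentage of the cytosolic sum in each library, with all 16 genes (open squares) and without Lars2 (filled circles), blue for MP and orange for APL libraries. Right, scaled fragments of Lars2 and of Rn45s on a log axis, where both are highest in MP 3.

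The ratio of a cytosolic enzyme to the mitochondrial enzyme of the same amino acid compares 2 genes within each library. Over 17 such pairs, the ratio was higher in every APL than every MP library for 9, lower for 2 and overlapping for 6. No matching share was computed over other gene pairs, so whether 9 of 17 is unusual was not tested. Eprs and Fars2 each enter 2 pairs, so the 17 are not independent. With 3 libraries per group the 2-sided exact permutation test cannot give a p under 0.1, and after Benjamini-Hochberg adjustment over the 17 pairs the smallest was 0.155, so no pair passes a threshold of 0.05 by that test. The largest difference was for threonine, where the log2 ratio of Tars to Tars2 scaled fragments was 0.23 ± 0.06 in MPs and 1.91 ± 0.08 in APL cells (SD, n = 3), a difference of 1.68. By FPKM these genes were near parity in MPs, with a ratio of 1.04, and the ratio was 3.37 in APL cells. For alanine the difference in log2 ratio was 1.46, and the FPKM ratio of Aars to Aars2 was 3.02 in MPs and 8.23 in APL cells.

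Farsa against Fars2 followed with a difference of 1.09 in log2 ratio, whereas Farsb against the same Fars2 gave 0.03 and overlapped. The other 6 pairs with a higher ratio, for arginine, tyrosine, valine, isoleucine, serine and asparagine, differed by 0.71, 0.68, 0.62, 0.51, 0.50 and 0.40. The ratio was lower in APL cells for methionine (-0.51) and histidine (-0.20). The pairs for cysteine, leucine, tryptophan, glutamate and proline overlapped. Among the 13 pairs with no gene on chromosomes 8 and 15, 6 ratios were higher, 2 lower and 5 overlapping. The median difference in log2 ratio was 0.40 over all 17 pairs and 0.03 over these 13.

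**Figure D4:**
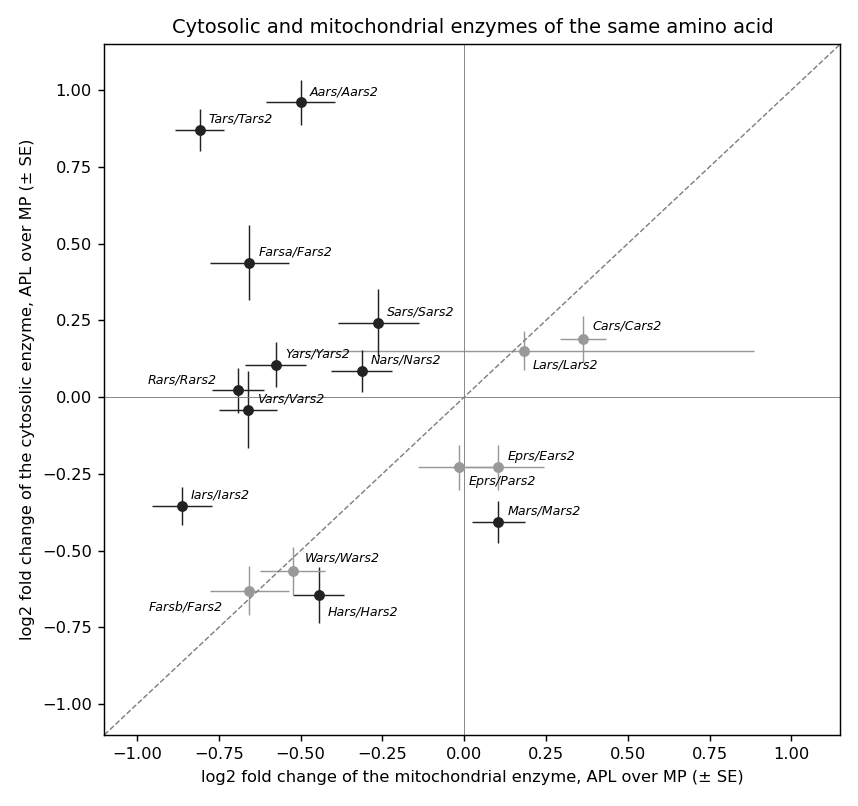
Log2 fold change (APL over MP) of each cytosolic enzyme against that of the mitochondrial enzyme of the same amino acid, with bars of 1 SE and a dashed line of equal change. Black pairs had ratios that did not overlap between the groups and grey pairs overlapped, and Tars/Tars2 and Aars/Aars2 lie farthest above the line.

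Other genes of the same pathway were taken from lists by role, to be set beside 21.7% of all genes higher and 24.4% lower. Among 9 mitochondrial translation factors 0 rose and 4 fell (44.4%), with a median log2 fold change of -0.48, near that of the mitochondrial synthetases. Mrrf, which recycles mitochondrial ribosomes, fell from 731, 823 and 866 scaled fragments in MPs to 425, 452 and 454 in APL cells (log2 fold change -0.86). Gfm2, a further recycling factor, Tufm, which delivers charged tRNA in mitochondria, and Mtif2, an initiation factor, fell by 0.78, 0.77 and 0.59 on the log2 scale. Of 4 genes of mitochondrial tRNA amidation and formylation 0 met both limits in either direction, with a median of -0.27. By adjusted p alone 2 of them were lower (50%), beside 37.3% of all genes. Of 7 cytosolic elongation genes 0 rose and 3 fell (42.9%), with a median of -0.37. The 3 were Eef1e1, which is also a scaffold above, Eef1b2 and Eef1g. Eef1b2 and Eef1g, subunits of the factor that recharges the elongation factor with GTP, were at -0.81 and -0.77.

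Of 8 related synthetase and editing genes 0 rose and 2 fell (25%, near the 24.4% of all genes), with a median of -0.39. The 2 that fell were Tarsl2 at -1.19 and Dtd1, which removes D-amino acids from tRNA, at -0.72. By adjusted p alone 7 of the 8 were lower (87.5%) and 0 higher, beside 37.3% and 29.7% of all genes. Of 27 genes of tRNA maturation and export 1 rose and 6 fell, with a median of -0.36. That is 3.70% and 22.2%, beside 21.7% of all genes higher and 24.4% lower, so the share that met both limits for a fall was near background. By adjusted p alone 16 of the 27 were lower (59.3%) and 1 higher (3.70%), beside 37.3% and 29.7% of all genes. The only riser, named after its value was seen, was Ctu2, which helps thiolate the wobble base of some tRNAs and lies on chromosome 8, at 0.70. Tsen15, a subunit of the tRNA splicing endonuclease, Elac1, a tRNA repair nuclease, Trmt61a, which methylates adenosine, and Adat1, which deaminates it, fell by 0.98, 0.77, 0.77 and 0.74 on the log2 scale. Adat1 also lies on chromosome 8.

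Genes upstream and downstream of ATF4 were described next. Of 23 genes of the ATF4 program, taken from background knowledge, 9 rose and 1 fell (39.1% and 4.35%), with a median log2 fold change of 0.42, beside 21.7% and 24.4% of all genes. Atf4 itself had 5472, 4411 and 5651 scaled fragments in MPs and 10956, 10299 and 12698 in APL cells, a log2 fold change of 1.13 ± 0.12 (SE) with an adjusted p of 3.2e-05 from limma. Atf4 lies on chromosome 15, and without it the program still held 8 higher and 1 lower of 22. Trib3, a pseudokinase target of ATF4, and Chac1, a glutathione-degrading enzyme, were near the detection limit in MPs, at 1.90 to 6.31 and 7.49 to 10.5 scaled fragments. In APL cells they reached 94.5 to 123 and 183 to 214 scaled fragments. Nupr1, a stress-induced chromatin protein, was at 12.6 ± 5.77 in MPs and 84.0 ± 6.33 in APL cells (SD, n = 3).

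The gene that fell was Vldlr, the very low density lipoprotein receptor, with 253 fragments before scaling over the MP libraries and 3 over the APL libraries. Its scaled ratio of MP to APL was 73.5, with an exact 95% interval of 24.9 to 359 that covers counting error only. Asns, the asparagine synthetase and a textbook target of ATF4, was not higher. It had 2487, 2695 and 3103 scaled fragments in MPs and 2024, 2218 and 2351 in APL cells, a log2 fold change of -0.33. Asns falls outside the rule for naming genes and was chosen after its values were seen. TGATGNAA was in the promoter window of 8 of the 23 genes of the program (34.8%), beside 4.51% of all genes.

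Of 10 kinases and sensors of the amino acid response 2 rose and 0 fell (20% and 0%), with a median of -0.13. Of all genes 21.7% were higher and 24.4% lower. Eif2ak3, the kinase PERK of the endoplasmic reticulum, had 938, 986 and 953 scaled fragments in MPs and 1582, 1667 and 1580 in APL cells (log2 fold change 0.75), and Ppp1r15b, which directs a phosphatase to eIF2α, was at 0.64. Eif2ak4, which encodes GCN2, was lower in every APL library at a log2 fold change of -0.20 (adjusted p 0.034 from limma), short of the fold limit. Of 18 amino acid transporters 8 rose and 5 fell (44.4% and 27.8%), with a median log2 fold change of 0.45. The 4 with the largest change, Slc38a1, Slc7a8, Slc43a1 and Slc38a9, a lysosomal arginine sensor, were all lower, at log2 fold changes of -6.67, -3.50, -2.03 and -1.57. Slc38a2, chosen after its values were seen, was higher at 1.55. Slc38a1 and Slc38a2 are related carriers of neutral amino acids such as glutamine, both on chromosome 15. Slc38a1 had 4391, 4446 and 3633 scaled fragments in MPs and 37.7, 43.3 and 38.3 in APL cells, whereas Slc38a2 had 5895, 6501 and 5470 in MPs and 17475, 17106 and 17611 in APL cells.

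**Figure D5:**
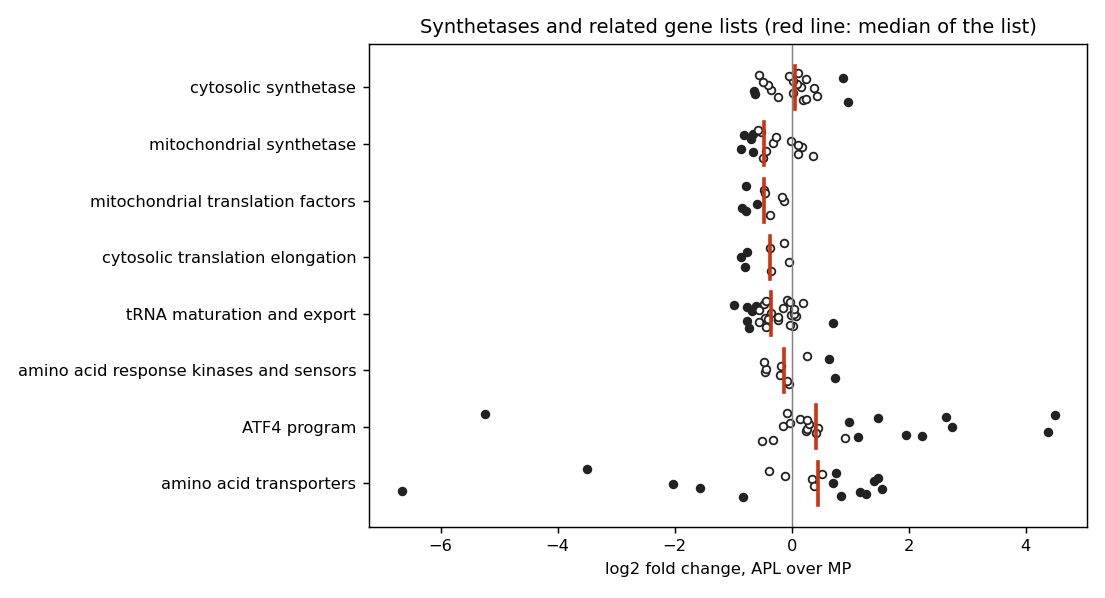
Log2 fold change (APL over MP) of every gene in the synthetase groups and the related lists, with called genes filled and a red line at the median of each list. The 2 synthetase groups lie within 1 unit of 0, while the ATF4 program and the amino acid transporters spread from -6.67 to 4.49.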

How the data were processed

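RNA was measured in 6 libraries of total RNA made with a TruSeq kit. In the deposited table the authors gave 16440 genes, each with FPKM values, which are per transcript length and mapped fragments, and estimated fragments. The authors' fragment values are a signal scaled by a factor of each library (1 fragment is worth 0.867 to 1.23), and 81.5% to 87.1% of nonzero values were whole multiples of it within 0.01. The submitters' processing notes name CASAVA 1.8, TopHat2 2.0.6 and mm10, while the paper's methods name STAR, mm9 and HTSeq-count. The tool behind the table is not given in the sources used here. Its loci are counted from 1 on GRCm38.

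Genes with at least 1 scaled fragment in at least 3 libraries were tested (14595) as log2(scaled fragments + 1) in limma 3.58.1 with a trend (R 4.3.3), group as the only term. Fold changes on this scale understate those of low genes. The limits, an adjusted p under 0.05 and a fold change over 1.5, follow the study's, with adjusted p in place of p. The fit was tested on simulated data. Pair ratios were compared by exact permutation of the 6 libraries. Columns without a sample numbered 0. Python 3.11.15 was used for the other steps.

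Members and lists were chosen with earlier results of these data known. The text names all 36 members, up to 4 called, non-overlapping genes per list by size of change, and Atf4, Eif2ak4, Aimp1, Aimp2 and Eef1e1. Cell type marker lists are given as sums and counts. Asns, Ctu2, Slc38a2, Kit, Cd34, Mpo, Rn45s, Exosc6 and Rab3gap2 were named outside that rule, after their values were seen. The kit's strand handling is not stated, so antisense reads cannot be told apart, and 4 members share a locus in the table with another gene (Aars, Mars, Yars and Iars2). Alternatives tried were pseudocounts, filters, scalings, FPKM, voom weights, a replicate block, left-out libraries, other limits, and leaving out members on chromosomes 8 and 15, with shared loci, or Lars2.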

Additional observations from a re-analysis of the deposited data

How the results depend on the processing

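Over 16 alternative fits, 18 of the 36 members kept direction and call throughout, and of 576 values 525 did so, 6 lost a call, 17 gained one and 28 changed sign. The 9 members that changed sign were uncalled. Of the 9 called members 5 (Aars, Tars, Iars2, Rars2 and Tars2) were called in every fit. Same-total scaling and voom weights shifted the all-gene median from -0.10 to -0.23 (log2), and the share of calls that were lower from 52.9% to 61.4% and 60.9%. In these 2 fits the count of cytosolic enzymes that fell went from 2 to 4 and of mitochondrial ones from 5 to 8, with medians of -0.078 and -0.60. The cytosolic median was -0.038 under quantile normalization, and 0 cytosolic enzymes fell under median ratio scaling. Of the cytosolic enzymes 0 rose without those on chromosomes 8 and 15 and 1 without shared loci. With no fold limit 6 rose and 7 fell, and 1 mitochondrial enzyme rose and 10 fell. At a 2-fold limit 0 cytosolic enzymes rose, 0 fell and 0 mitochondrial ones fell. The cause of these shifts was not tested.

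Leaving out each library gave 0 to 3 cytosolic and 3 to 6 mitochondrial enzymes that fell and 0 to 1 mitochondrial that rose. The low ends and the riser (Lars2) came without MP replicate 3.

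Signs turned under quantile normalization, same-total scaling and voom weights for Gars (-0.10, -0.12, -0.12), Nars (-0.0061, -0.046, -0.046) and Rars (-0.069, -0.11, -0.11), and under the latter 2 for Yars (-0.026, -0.026), Ears2 (-0.026, -0.030) and Mars2 (-0.026, -0.026). Median ratio scaling turned Vars (0.021) and Pars2 (0.048), and quantile normalization Pars2 (0.043).

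The library numbers gave no clear sign of pairing: same-numbered deviations correlated at 0.135, -0.00159 and 0.127, and different-numbered ones at -0.277 to 0.197. With 3 libraries per group these values cannot exclude pairing. A replicate block gave 3164 genes higher and 3589 lower and changed no member's call. A planned count model was not run, because too few fragments came out whole. Leaving out Lars2, chosen after seeing the data, gave a mitochondrial median of -0.50. Leave-one-out ranges were -0.032 to 0.081 for Gars, -0.023 to 0.067 for Rars, -0.13 to 0.072 for Vars, -0.29 to 1.04 for Lars2 and -0.089 to 0.094 for Pars2.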
